A study of Homo sapiens with 4 samples.

Results

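EGFR, its relatives ERBB2 and ERBB3, 4 of their ligand genes (TGFA, AREG, EREG and HBEGF), the receptor inhibitor ERRFI1 and the ligand-releasing protease ADAM17 were followed in A549 cells depleted of PSME4. These 9 genes were chosen by name, all 9 were among the 15037 genes of the count table, and all 9 passed the filter on low counts. A549 is an established epithelial cell line from a human lung carcinoma, kept here in DMEM. Polyadenylated RNA was sequenced in 2 libraries after knockdown of PSME4 (PSME4 KD) and in 2 libraries after a control knockdown of RFP (control KD). PSME4 is a proteasome activator, and the comparison asks which mRNA levels differ once it is depleted. The knockdown reagent and the number of separate cultures are not given in the labels, so the p-values reflect the spread of these libraries alone, and that spread may be technical.

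The EGFR family are cell-surface tyrosine kinases that pair up when a ligand binds and then signal through RAS and MAP kinases and through PI3 kinase and AKT. Their ligands are made as membrane-anchored precursors, and proteases such as ADAM17 cut them free, so that an epithelial cell can stimulate itself and its neighbours. Amphiregulin (AREG) and epiregulin (EREG) are known as transcripts that rise when the MAP kinase route is active.

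EREG and AREG lie side by side on chromosome 4, 56.4 kb apart with 0 other coding genes between them, and both had lower levels in PSME4 KD cells. Their promoters are shown because the neighbouring genes moved together. The sequences are from RefSeq on GRCh38.p14 and run from 250 bases before to 50 bases after the start of the gene, 5′ to 3′, both on the plus strand. They cover chr4:74364895-74365194 for EREG and chr4:74444886-74445185 for AREG. Capitals mark matches, on either strand, to any of 6 searched motifs. The letters searched were TATAAA for the box of that name and GGGCGG for the GC box. The CCAAT box was searched by its name, the AP-1 site as TGANTCA and the cAMP response element as TGACGTCA. The core of the cAMP response element, TGACG, was searched as well and lies within it.
EREG: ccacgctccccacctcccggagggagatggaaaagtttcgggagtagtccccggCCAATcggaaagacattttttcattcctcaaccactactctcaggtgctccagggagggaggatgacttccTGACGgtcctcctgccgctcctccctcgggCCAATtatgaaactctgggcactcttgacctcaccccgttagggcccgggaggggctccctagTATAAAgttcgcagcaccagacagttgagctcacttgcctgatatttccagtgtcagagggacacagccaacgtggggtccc
AREG: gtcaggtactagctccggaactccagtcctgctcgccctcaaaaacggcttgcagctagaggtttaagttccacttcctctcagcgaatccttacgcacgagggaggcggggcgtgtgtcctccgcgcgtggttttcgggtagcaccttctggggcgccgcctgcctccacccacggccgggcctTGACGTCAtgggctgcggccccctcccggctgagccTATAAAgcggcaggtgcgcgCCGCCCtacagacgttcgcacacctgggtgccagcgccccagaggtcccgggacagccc
Both windows held TATAAA, with its first base at -32 in EREG and at -29 in AREG, counted from the start. Of 35116 RefSeq promoters of the same length, 11.5% held TATAAA, as did 5.67% of the 10475 that belong to tested genes. AREG held a full cAMP response element at -65, which 1.85% of all promoters and 3.28% of those of tested genes held. EREG held the core alone at -125, which 24.6% of all promoters and 34.2% of those of tested genes held. EREG further had CCAAT at -196 and -95, a motif in 34.6% of all promoters and 36.8% of those of tested genes. AREG had a GC box on the minus strand at -9, a motif in 45.0% of all promoters and 69.6% of those of tested genes. Neither window held the AP-1 letters, which 7.71% of all promoters and 4.59% of those of tested genes did. Promoter sequences were matched for 6 of the 9 genes, and TATAAA was in those of EREG and AREG. EGFR, ERBB3 and TGFA had no matched promoter and were not searched. A match of letters describes the sequence and does not show that a factor binds there.

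PSME4 itself, the targeted gene, was at 75.3 and 85.1 CPM (counts scaled to library size with TMM factors) in PSME4 KD, against 158 and 180 CPM in control KD. Its log2 fold change was −1.08 (SE 0.20), and its p-value in the quasi-likelihood test of edgeR, Benjamini-Hochberg adjusted over 13497 genes, was 0.000855. Its adjusted p in edgeR was 0.0522 when control KD 1 was dropped, 0.0599 when control KD 2 was, 0.146 when PSME4 KD 1 was and 0.0145 when PSME4 KD 2 was. Depth was 14845701 to 15208588 counts per library in PSME4 KD and 11766371 to 11769392 in control KD. All 5 epithelial markers looked up were in the table. They summed to 4679 and 3703 CPM in PSME4 KD and to 4135 and 3367 CPM in control KD. Of these sums, KRT18 alone made up 4119 and 3090 CPM in PSME4 KD and 3570 and 2820 CPM in control KD. EPCAM and KRT19 were at most 7.88 and 3.78 CPM. None of 4 endothelial markers was in the table. Of 5 leukocyte and 5 fibroblast markers 2 each were in the table, and PTPRC, CD3E, COL1A2, PDGFRB and DCN were not. The leukocyte marker CD68 stood at 32.1 and 33.5 CPM in PSME4 KD and 28.5 and 23.7 CPM in control KD, and CD14 at 7.16 and 5.91 CPM in PSME4 KD and 5.36 and 4.73 CPM in control KD. The fibroblast marker COL1A1 stood at 17.3 and 19.4 CPM in PSME4 KD and 10.6 and 11.4 CPM in control KD, while PDGFRA was lower in PSME4 KD, at 0.723 and 1.31 CPM, against 2.60 and 2.58 CPM in control KD. The part of these levels in the results below was not tested.

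The ligand genes were lower in PSME4 KD cells. TGFA, EREG and AREG passed the test, HBEGF did not, and no gene of the 9 passed in the upward direction. Over all 13497 tested genes 10.6% passed at an adjusted p under 0.05, 4.56% as higher and 6.00% as lower in PSME4 KD. Without adjustment 7 of the 9 had a p under 0.05, beside 26.2% of all tested genes. The PSME4 KD and control KD libraries did not overlap for 8 of the 9, beside 55.0% of all tested genes. The 9 genes were chosen with earlier results of these data known, so these shares do not test the genes as a set. In RNA from whole cultures, less RNA per cell and fewer cells that express a gene cannot be told apart.

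**Figure D1:**
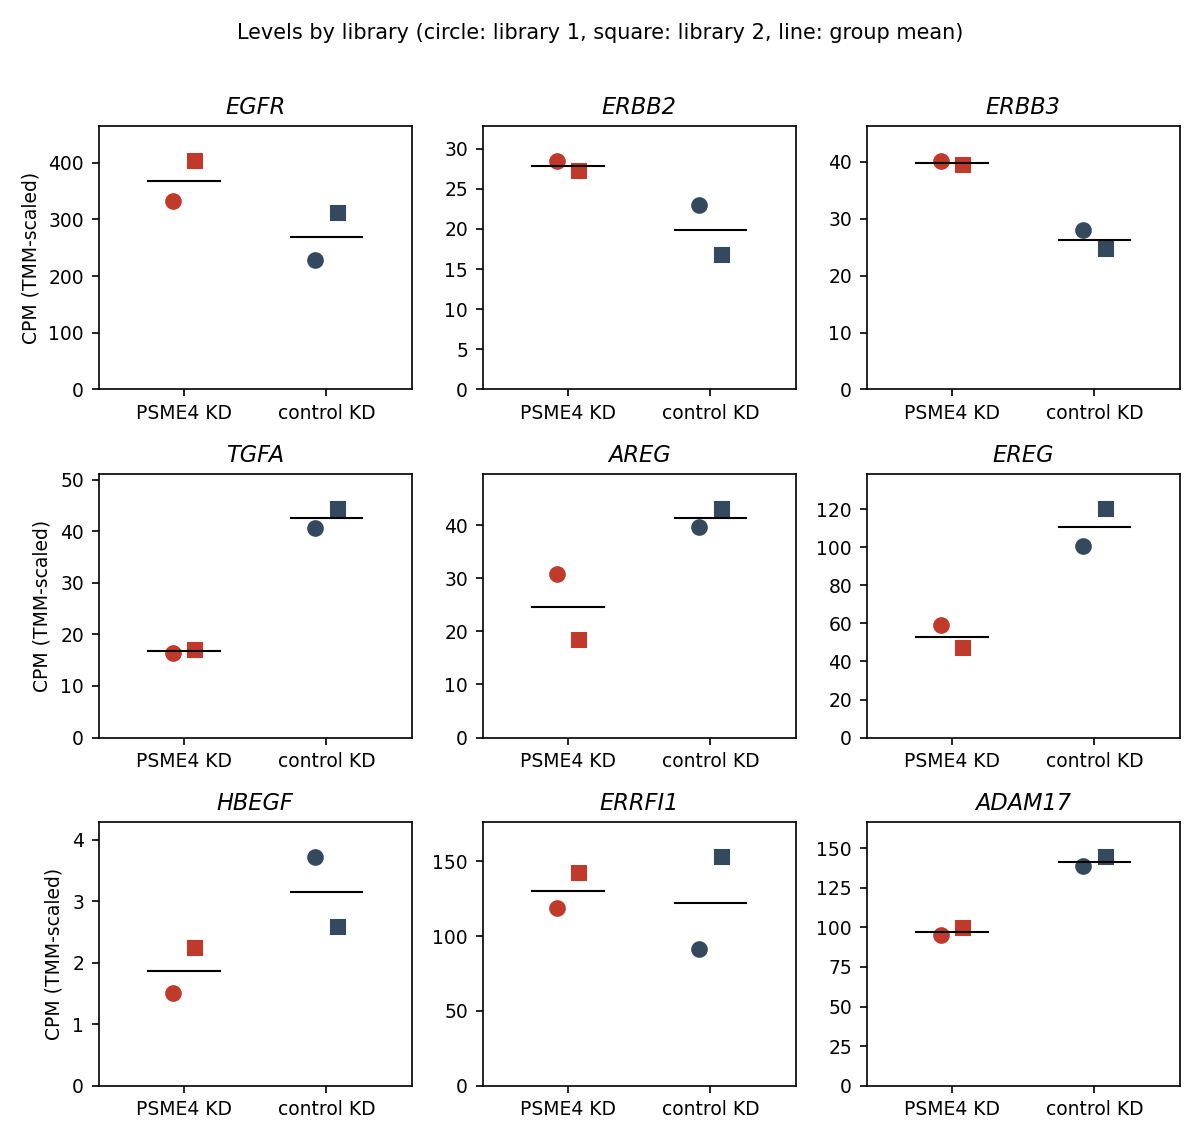
Level of each gene in each library, as TMM-scaled CPM on an axis that starts at 0, with PSME4 KD in red on the left and control KD in dark blue on the right. Circles are library 1, squares library 2 and lines the mean of 2 libraries. TGFA, AREG, EREG, HBEGF and ADAM17 lie lower in both PSME4 KD libraries, EGFR, ERBB2 and ERBB3 lie higher, and ERRFI1 overlaps.

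TGFA encodes transforming growth factor alpha, a ligand of EGFR. It was at 16.5 and 17.0 CPM in PSME4 KD, against 40.6 and 44.4 CPM in control KD. The 2 libraries of each group were close together, and both PSME4 KD libraries lay far below both control KD libraries. The fall was 2.54-fold, a log2 fold change of −1.34 (SE 0.22, Benjamini-Hochberg adjusted p = 0.000226, edgeR). These levels rest on 251 and 259 counts in PSME4 KD and 469 and 516 in control KD. The call ended in edgeR without PSME4 KD 1 (−1.32, adjusted p = 0.0895) and held without any of the other 3 libraries. In the authors' deposited table TGFA had a log2 value of 1.34 for control KD over PSME4 KD, with an adjusted p of 1.87e-06.

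EREG encodes epiregulin, which binds EGFR and ERBB4. It was at 59.1 and 46.9 CPM in PSME4 KD, against 101 and 120 CPM in control KD. All 4 libraries kept the groups apart. EREG fell 2.09-fold (log2 fold change −1.06, SE 0.20, Benjamini-Hochberg adjusted p = 0.00136, edgeR). Its transcript has a low GC content of 36.1%, and after correcting every library for GC content the log2 fold change was −0.74 and the call remained (adjusted p = 0.00781, edgeR). Each fit with 1 library left out lost the call, with log2 values of −1.24 with PSME4 KD 1 dropped, −0.87 with PSME4 KD 2 dropped, and −1.18 and −0.92 with control KD 1 or control KD 2 dropped (edgeR adjusted p 0.0723 to 0.111). The authors' deposited table gives EREG a log2 value of 1.05 for control KD over PSME4 KD and an adjusted p of 0.000189.

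AREG encodes amphiregulin, a ligand of EGFR with affinity for heparan sulfate. It was at 30.7 and 18.4 CPM in PSME4 KD, against 39.7 and 43.1 CPM in control KD. The PSME4 KD libraries differed among themselves by more than the gap from the higher of them to the nearest control KD library. AREG fell 1.68-fold (log2 fold change −0.75, SE 0.23, Benjamini-Hochberg adjusted p = 0.0356, edgeR). The size depended on the library: the log2 fold change was −1.16 with PSME4 KD 1 dropped, −0.40 with PSME4 KD 2 dropped, and −0.81 and −0.68 with control KD 1 or control KD 2 dropped, past the threshold in none of these edgeR fits (adjusted p 0.123 to 0.659). DESeq2 gave −0.74 with an adjusted p of 0.0576. In the authors' deposited table the adjusted p of AREG was 0.0758, where 6.46% of all genes were under 0.05.

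HBEGF encodes heparin-binding EGF-like growth factor, which binds EGFR and ERBB4. It was at 1.51 and 2.23 CPM in PSME4 KD, against 3.72 and 2.58 CPM in control KD, from 23 and 34 counts in PSME4 KD and 43 and 30 in control KD. The groups did not overlap, but the nearest libraries of the 2 groups were close. Its log2 value was −0.75 (SE 0.39), with a 95% confidence interval of −1.54 to 0.04 and an adjusted p of 0.218 by edgeR. With 1 library dropped it lay between −1.03 and −0.46, nearest 0 without control KD 1 (−0.46) and without PSME4 KD 1 (−0.49). At this depth an absent change and a fall as large as that of TGFA both lie within the interval.

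Summed over the 4 ligands, the level per kilobase of transcript was 42.0 and 29.9 in PSME4 KD libraries, against 64.8 and 72.2 in control KD libraries, on a scale of CPM divided by the length of the longest protein-coding transcript in GENCODE 29. AREG made up 59.0% and 49.7% of this sum in PSME4 KD and 49.4% and 48.1% in control KD, and EREG 30.4% and 34.0% in PSME4 KD and 33.7% and 36.1% in control KD. TGFA made up 9.10% and 13.2% in PSME4 KD, against 14.5% and 14.3% in control KD. The shares of AREG and of TGFA did not overlap between the groups, AREG higher and TGFA lower in PSME4 KD, and the shares of EREG did overlap. For both AREG and TGFA the gap between the groups was smaller than the difference between the PSME4 KD libraries. Ligand shares were not tested.

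The 3 receptor genes had higher values in PSME4 KD, and none passed the test. EGFR, the receptor for all 4 ligands, was at 333 and 404 CPM in PSME4 KD, against 227 and 311 CPM in control KD. The lower PSME4 KD library was close to the higher control KD library. The log2 value was 0.45 (SE 0.20, 95% confidence interval 0.04 to 0.86), with an adjusted p of 0.151 by edgeR. It was 0.24 without control KD 1 and 0.70 without control KD 2.

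ERBB3 encodes a receptor with little kinase activity of its own that binds neuregulins and signals through its partners. It was at 40.2 and 39.4 CPM in PSME4 KD, against 27.9 and 24.6 CPM in control KD. Both groups were tight and well apart. The log2 value was 0.60 (SE 0.21, 95% confidence interval 0.17 to 1.03), with an adjusted p of 0.0654 by edgeR. It passed in 1 of 9 alternatives that kept all libraries, with library size as the only scaling (0.64, adjusted p = 0.0430, edgeR). After the GC correction it was 0.48 (adjusted p = 0.0862, edgeR). The authors' deposited table gives ERBB3 −0.61 for control KD over PSME4 KD and an adjusted p of 0.0805.

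ERBB2 encodes a receptor that binds no ligand directly and serves as partner of the others. It was at 28.5 and 27.2 CPM in PSME4 KD, against 23.0 and 16.8 CPM in control KD. The control KD libraries were further apart than the PSME4 KD libraries. The log2 value was 0.48 (SE 0.23, 95% confidence interval 0.02 to 0.95, adjusted p = 0.171 by edgeR). The transcript has a GC content of 57.5%, and after the GC correction the value was 0.26. Without control KD 1 it was 0.73 and without control KD 2 it was 0.28. At its ends ERBB2 overlaps the genes PGAP3 and MIEN1 on the opposite strand, and whether counting used the strand is not stated, so reads there may have been shared or dropped.

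**Figure D2:**
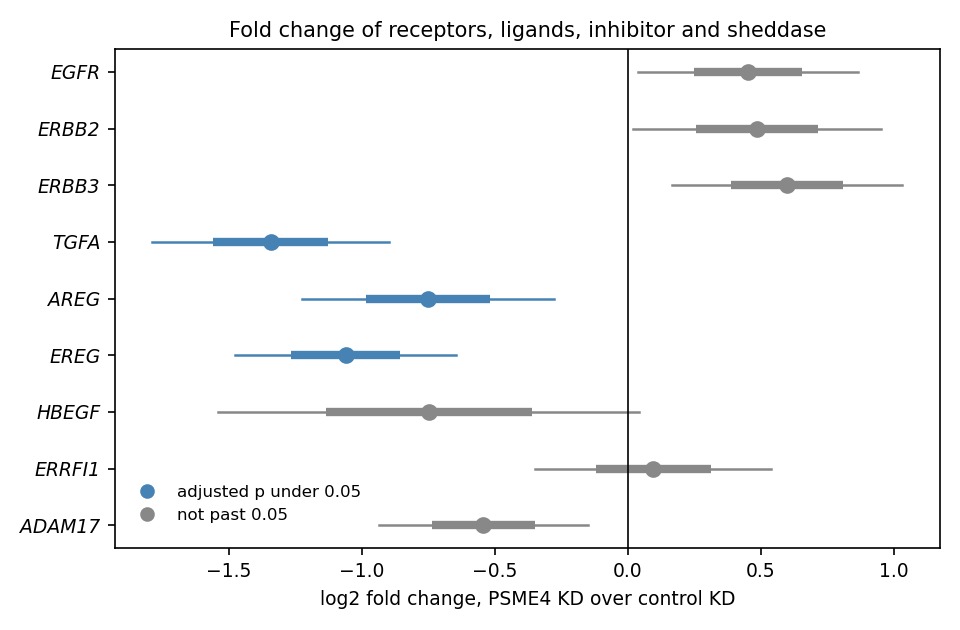
Log2 fold change, PSME4 KD over control KD, of the 9 genes in the edgeR fit, with thick bars for 1 SE on each side and thin bars for the 95% confidence interval. TGFA (−1.34), EREG (−1.06) and AREG (−0.75), in blue, passed an adjusted p of 0.05, and the receptors EGFR, ERBB2 and ERBB3 lie between 0.45 and 0.60 in grey.

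ADAM17, the protease that releases TGFA, AREG, EREG and HBEGF proteins from the membrane, was at 94.9 and 99.5 CPM in PSME4 KD, against 139 and 145 CPM in control KD. The libraries of each group were close together and the groups were apart. The log2 value of −0.54 (SE 0.19, 95% confidence interval −0.94 to −0.15) did not pass in edgeR (adjusted p = 0.0663), while DESeq2 gave an adjusted p of 0.0470. The transcript has a GC content of 38.5%, and the value was −0.29 after the GC correction (adjusted p = 0.288, edgeR). ADAM17 overlaps IAH1 on the opposite strand. The authors' deposited table lists an adjusted p of 0.0623, for the same log2 value as this DESeq2 fit with the sign reversed.

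ERRFI1 (also known as MIG6) is an inhibitor that binds the EGFR kinase domain and is itself induced by EGFR signalling. It was at 119 and 142 CPM in PSME4 KD, against 91.2 and 153 CPM in control KD. The control KD libraries lay on both sides of the PSME4 KD libraries. The log2 value was 0.10 (SE 0.22, 95% confidence interval −0.35 to 0.54, adjusted p = 0.826 by edgeR). Its sign rested on single libraries, at 0.22 with PSME4 KD 1 dropped, −0.0023 with PSME4 KD 2 dropped, and −0.23 and 0.52 with control KD 1 or control KD 2 dropped.

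Levels can be ordered between genes per kilobase of transcript. In PSME4 KD the order was ERRFI1 (42.0 ± 5.22 CPM per kb, SD, n = 2), EGFR (37.5 ± 5.10), ADAM17 (22.0 ± 0.731), AREG (19.8 ± 7.01), EREG (11.5 ± 1.87), ERBB3 (6.72 ± 0.0989), ERBB2 (5.81 ± 0.198), TGFA (3.88 ± 0.0834) and HBEGF (0.784 ± 0.213). Neighbours whose libraries overlapped there were ERRFI1 with EGFR and ADAM17 with AREG. In control KD the order was ERRFI1 (39.3 ± 14.1 CPM per kb, SD, n = 2), AREG (33.4 ± 1.92), ADAM17 (32.1 ± 0.966), EGFR (27.4 ± 6.05), EREG (24.0 ± 2.99), TGFA (9.85 ± 0.622), ERBB3 (4.44 ± 0.401), ERBB2 (4.15 ± 0.922) and HBEGF (1.32 ± 0.338). Each neighbour among the highest 5 overlapped the next in control KD, as did ERBB3 with ERBB2. TGFA was thus below both ERBB3 and ERBB2 in PSME4 KD and above both in control KD, with no overlap of libraries in either group. With the union of all exons as length, a choice made after seeing the data, ADAM17 moved to 9.04 in PSME4 KD and 13.2 in control KD and to place 5 in both groups, and ERBB2 was below TGFA in PSME4 KD (2.70 against 3.37).

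**Figure D3:**
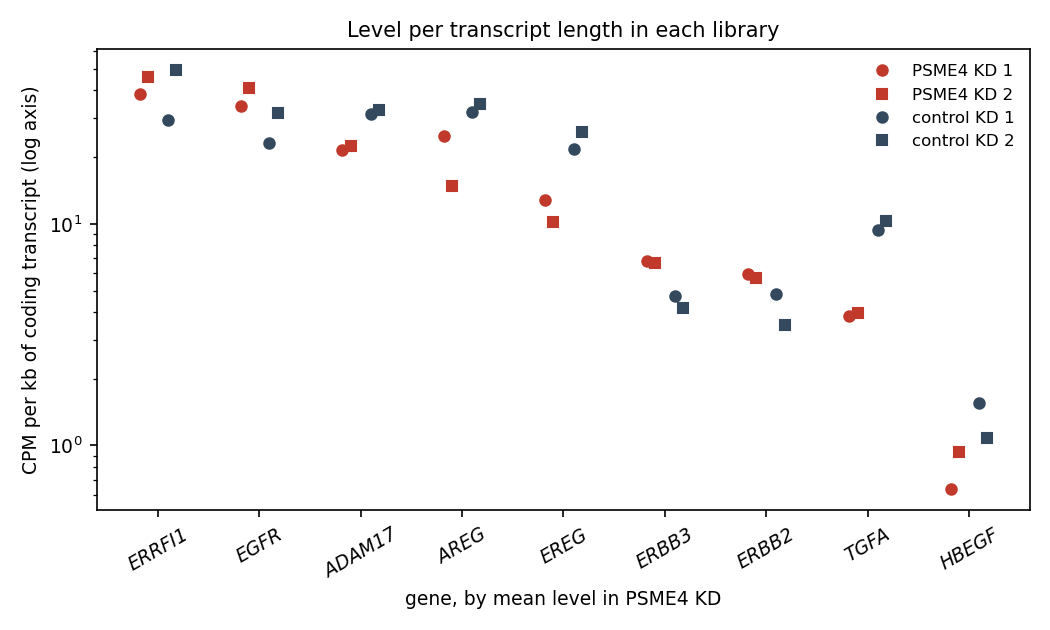
CPM per kilobase of the longest protein-coding transcript (log axis) in each of the 4 libraries, genes ordered by their mean in PSME4 KD, with PSME4 KD in red and control KD in dark blue. ERRFI1 and EGFR are highest in PSME4 KD (42.0 and 37.5), HBEGF is lowest in both groups, and TGFA changes place with ERBB2 and ERBB3 on this length. With the union of all exons as length, not drawn, TGFA stays above ERBB2 in PSME4 KD (3.37 against 2.70).

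Beside the pair on chromosome 4, TGFA and ADAM17 share chromosome 2, far apart, and the other genes each lie on a chromosome of their own. EGFR spans chr7:55019021-55211628 and TGFA chr2:70447280-70554193 on GRCh38. EGFR overlaps EGFR-AS1 on the opposite strand, and AREG, EREG and HBEGF overlap no other gene in GENCODE 29.

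The genes whose levels over the 4 libraries were closest to EGFR among 8747 others with at least 10 CPM were ZNF692, a zinc-finger protein gene, OXSM, an enzyme of mitochondrial fatty acid synthesis, and FBN2, the matrix protein fibrillin 2. Their Euclidean distances from EGFR in centred log2 CPM were 0.032, 0.035 and 0.057, and their log2 values were 0.46, 0.45 and 0.42. Closest to TGFA were PALMD, CLVS1 and GCNT1, a glycosyltransferase of mucin-type sugar chains, at distances of 0.11, 0.11 and 0.17. Their log2 fold changes were −1.45, −1.33 and −1.21. With 4 libraries, closeness describes these libraries and nothing more.

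Around these 9 genes, 96 other genes of the EGFR pathway were listed in 7 groups by role, and 91 could be tested. Of these, 3 rose, 5 fell and 83 did not pass, which is 8.79% called, beside 10.6% of all tested genes. The median log2 fold change of the 91 was 0.00067, beside −0.0021 over all tested genes. Fits with 1 library left out called 0 of the 91 when PSME4 KD 1 or control KD 1 was dropped, CCND1 alone when control KD 2 was, and CCND1 and AKT1 when PSME4 KD 2 was, where over all genes those fits called 43 to 281.

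Among the other receptor and ligands, 6 of 8 genes were in the table and 0 of 5 tested genes passed in edgeR, 2 of them with an unadjusted p under 0.05, beside 26.2% of all tested genes. The receptor gene ERBB4 and the ligand gene NRG3 were not in the table, and EPGN had too few counts to test. NRG1, a neuregulin that binds ERBB3 and ERBB4, was at 335 and 337 CPM in PSME4 KD, against 440 and 482 CPM in control KD. The groups were apart, but its log2 value of −0.46 (SE 0.19) did not pass (adjusted p = 0.122, edgeR). BTC, the EGFR ligand betacellulin, was at 5.39 and 6.17 CPM in PSME4 KD, against 8.57 and 11.9 CPM in control KD. Its log2 value of −0.82 (SE 0.28) missed the threshold in edgeR (adjusted p = 0.0586) and passed with no filter on counts (0.0474) and with a minimum of 50 counts in 2 libraries (0.0459). EGF itself had 26 and 16 counts in PSME4 KD and 17 and 14 in control KD, with overlapping levels, and NRG4 stood at 2.82 and 2.03 CPM in PSME4 KD and 1.82 and 1.38 CPM in control KD (log2 value 0.60, SE 0.41, and 0.35 without PSME4 KD 1).

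Of 10 other shedding genes, 1 was called, beside 10.6% of all tested genes. TIMP3, an inhibitor of ADAM17, fell and none rose. TIMP3 had 3 and 11 counts in PSME4 KD, against 21 and 20 counts in control KD (log2 fold change −1.92, SE 0.54, adjusted p = 0.0223 by edgeR). It was −1.28 with PSME4 KD 1 dropped and −3.08 with PSME4 KD 2 dropped, and in none of the 4 fits with a library dropped did it pass (edgeR adjusted p 0.0835 to 0.350). The iRhom genes RHBDF1 and RHBDF2, partners that bring ADAM17 to the cell surface, had log2 values of 0.69 (SE 0.28) and 0.69 (SE 0.27) and did not pass (adjusted p 0.112 and 0.0935, edgeR). RHBDF1 was at 0.45 without control KD 2, and RHBDF2 at 0.46 after the GC correction. ADAM10, another sheddase of EGFR ligands, was at 222 and 222 CPM in PSME4 KD and 178 and 300 CPM in control KD, so the control KD libraries enclosed both PSME4 KD libraries.

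The route from the receptor to PI3 kinase and AKT held the 3 increases among the 91 genes. Of 11 tested genes of this group, AKT1, AKT2 and PIK3R2 rose, 1 fell and 7 did not pass, which is 36.4% called, beside 10.6% of all tested genes (4.56% higher and 6.00% lower). AKT1, a survival kinase, was at 56.9 and 35.2 CPM in PSME4 KD, against 26.6 and 23.0 CPM in control KD (log2 fold change 0.89, SE 0.23, adjusted p = 0.0141 by edgeR). The AKT1 call ended with PSME4 KD 1 dropped (0.50) and with either control KD library dropped (edgeR adjusted p 0.128 to 0.408), and held at 1.22 with PSME4 KD 2 dropped. PIK3R2, a regulatory subunit of PI3 kinase, was at 8.14 and 7.55 CPM in PSME4 KD, against 3.81 and 3.18 CPM in control KD (1.16, SE 0.31, adjusted p = 0.0153, edgeR). AKT2, a kinase related to AKT1, named after its values were seen, was at 71.9 and 68.2 CPM in PSME4 KD, against 47.4 and 38.2 CPM in control KD (0.71, SE 0.20). AKT2 lost its call after the GC correction (0.47, adjusted p = 0.0710, edgeR). After the same correction AKT1 was at 0.65, close to the threshold (adjusted p = 0.0451, edgeR), and PIK3R2 at 0.96 (adjusted p = 0.0297, edgeR). With a library dropped PIK3R2 lay between 1.05 and 1.30.

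Of 13 tested genes of the RAS and MAP kinase cascade, RASA1, a RAS GTPase-activating protein, fell and none rose. That is 7.69% called, beside 10.6% of all tested genes. RASA1 was at 68.6 and 64.0 CPM in PSME4 KD, against 90.2 and 111 CPM in control KD (log2 fold change −0.60, SE 0.20, adjusted p = 0.0490 by edgeR). That call stood at the threshold and ended under library size as the only scaling, limma voom, no filter, the replicate block (adjusted p = 0.0530, edgeR) and the GC correction (−0.49). KSR1, a scaffold of the cascade, and the kinase MAPK3 had log2 values of 0.65 (SE 0.22) and 0.58 (SE 0.21), neither of which passed (adjusted p 0.0597 and 0.0725, edgeR). KSR1 passed under 3 alternatives (edgeR adjusted p 0.0315 to 0.0497) and was at 0.35 without PSME4 KD 2. MAPK3 passed with library size as the only scaling (adjusted p = 0.0495, edgeR) and was at 0.34 after the GC correction.

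Among 19 genes of ERK output and feedback, CCND1 and DUSP4 fell, 17 did not pass and none rose. That is 10.5% called, beside 10.6% of all tested genes (4.56% higher and 6.00% lower). CCND1 encodes cyclin D1, which drives entry into the cell cycle, and was at 58.8 and 52.6 CPM in PSME4 KD, against 139 and 120 CPM in control KD (log2 fold change −1.22, SE 0.20, adjusted p = 0.000249 by edgeR). Its call ended without control KD 1 (−1.11) and without PSME4 KD 1 (−1.30). DUSP4 encodes a phosphatase that is induced by ERK and switches it off, and was at 128 and 145 CPM in PSME4 KD, against 229 and 215 CPM in control KD (−0.70, SE 0.19, adjusted p = 0.0196, edgeR). The feedback inhibitor SPRED1 had a log2 value of −0.43 (SE 0.23), short of the threshold, and was at −0.20 after the GC correction.

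None of 15 adaptors and direct substrates passed in edgeR, 3 of them with an unadjusted p under 0.05, beside 26.2% of all tested genes. The adaptor CRKL had a log2 value of 0.57 (SE 0.20, adjusted p = 0.0675, edgeR), the transcription factor STAT5B 0.45 (SE 0.21) and the phospholipase PLCG1 0.48 (SE 0.22, and 0.27 after the GC correction). CRKL passed under 3 alternatives, with an adjusted p down to 0.0359 in edgeR. Likewise none of 18 genes of receptor down-regulation and traffic passed in edgeR, 5 of them with an unadjusted p under 0.05, beside 26.2% of all tested genes. LRIG1, a membrane protein that restrains EGFR family receptors, was at 3.09 and 2.95 CPM in PSME4 KD, against 5.10 and 5.42 CPM in control KD. Its log2 value of −0.80 (SE 0.33) did not pass (adjusted p = 0.113, edgeR) and passed after the GC correction (adjusted p = 0.0380, edgeR). The endocytic adaptors CD2AP and EPN1 had log2 values of −0.52 (SE 0.20) and 0.60 (SE 0.25), neither of which passed. CD2AP was at −0.21 after the GC correction and −0.31 without control KD 2, and EPN1 at 1.12 with control KD 1 dropped and 0.22 with control KD 2 dropped.

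**Figure D4:**
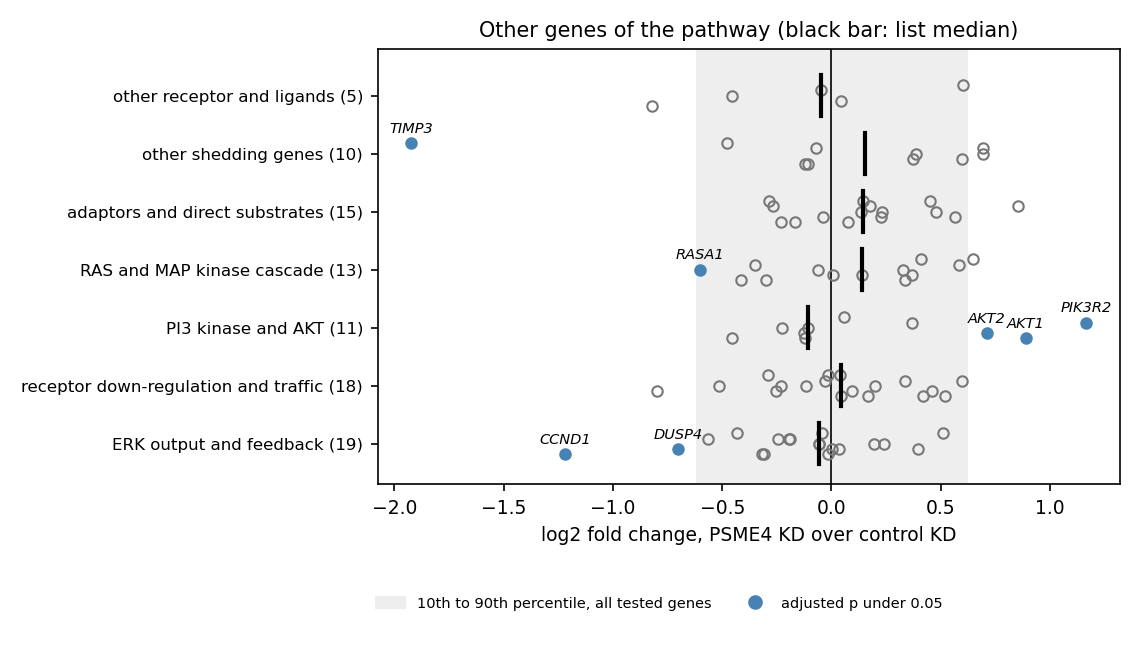
Log2 fold change, PSME4 KD over control KD, of the 91 tested genes in 7 role groups, with the number tested in brackets, black bars for group medians and a grey band from the 10th to the 90th percentile of all tested genes (−0.62 to 0.62). Blue points passed an adjusted p of 0.05: PIK3R2, AKT1 and AKT2 to the right, and CCND1, DUSP4, RASA1 and TIMP3 to the left; 1 gene that fell is not drawn, and counts and medians include it.

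**Figure D5:**
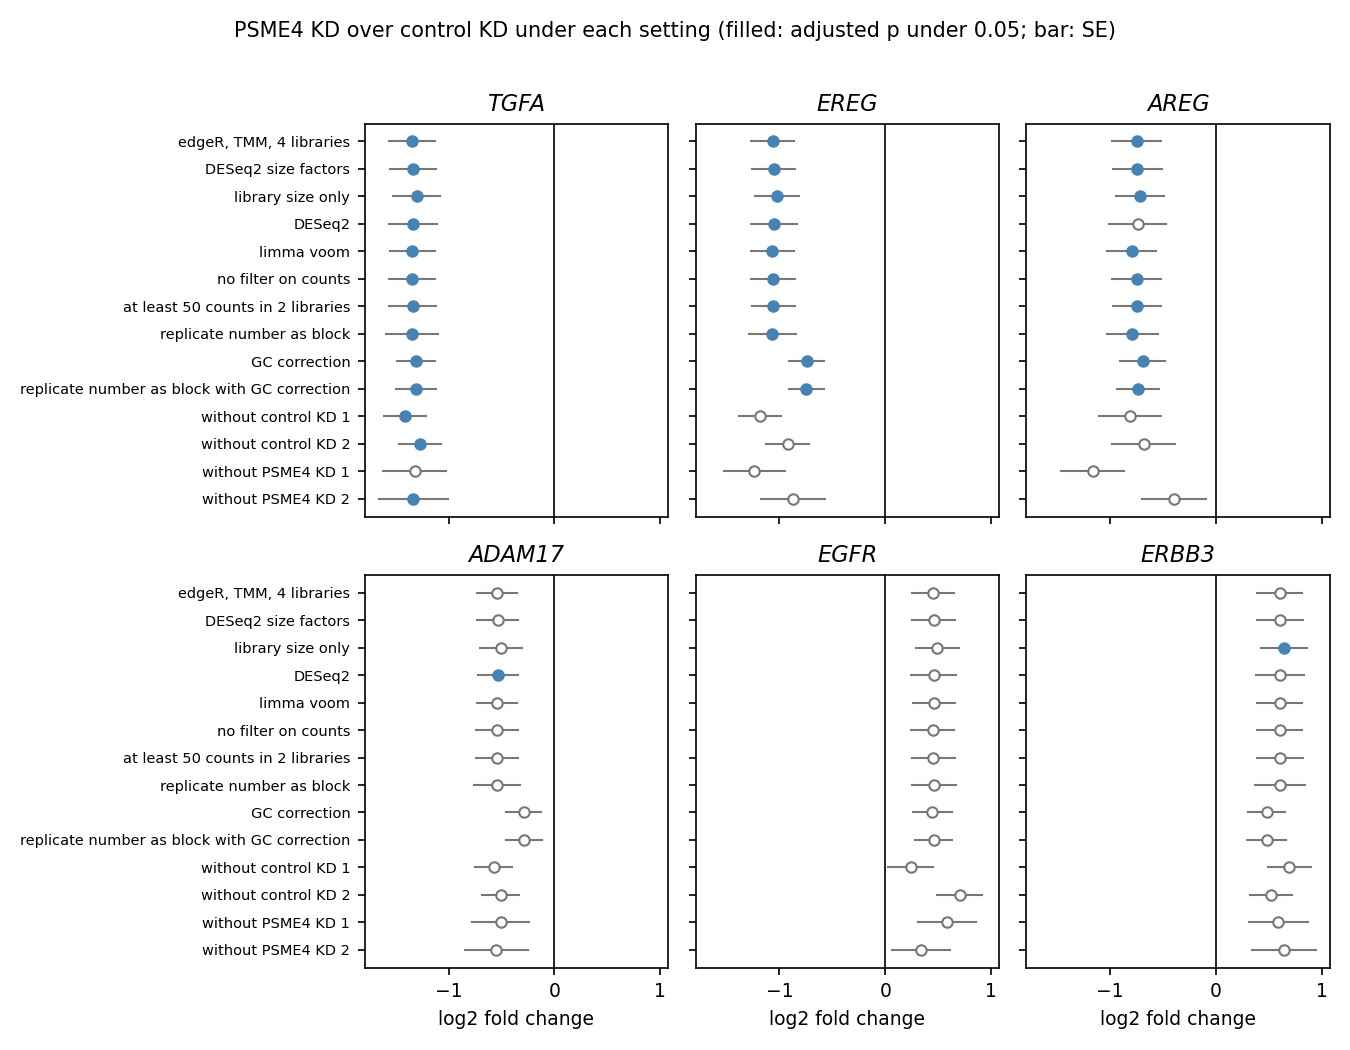
Log2 fold change, PSME4 KD over control KD, of 6 of the genes under each setting, with bars of 1 SE on each side and filled points where the adjusted p was under 0.05. TGFA stays between −1.41 and −1.27 in all, EREG is nearer 0 after the GC correction (−0.74), AREG spans −1.16 to −0.40 with 1 library left out, and ADAM17 and ERBB3 each pass in 1 setting.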

How the data were processed

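Whole-number counts per gene and library were taken as deposited, unnormalised per the file headers. The submitters' processing notes name cutadapt, STAR, DESeq2 and hg38; the read counter and its strand setting are not stated. Libraries came from a Lexogen SENSE kit, per the labels' protocols. The authors' log2 fold change (control KD over PSME4 KD), p-value and adjusted p-value stand in the deposited table too. Their log2 values of TGFA, EREG, AREG and ADAM17 equal those of the DESeq2 alternative below with the sign reversed. The deposited values and that alternative are thus not separate sources. No gene had a largest count under 6.

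In R 4.3.3, edgeR 4.0.16 was run on the 13497 of 15037 genes kept by filterByExpr, with TMM scaling and a quasi-likelihood fit on group alone (2 residual degrees of freedom). P-values were Benjamini-Hochberg adjusted over these genes, with 0.05 as threshold. SE is the size of the log2 fold change over the square root of F. The chi-square between libraries of a group, per degree of freedom, was 18.0 in PSME4 KD and 22.3 in control KD, above counting error. Gene lengths, GC content and positions came from GENCODE 29 on GRCh38. The GC correction, an offset in edgeR, removes the lowess dependence (span 0.4) of a library's log2 deviations on transcript GC, known for 97.6% of tested genes. Over genes, which are not independent replicates, GC had a Spearman correlation of 0.40 with the fold change, 0.099 with PSME4 KD 2 over 1 and −0.49 with control KD 2 over 1.

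Alternatives were DESeq2 1.42.0, its size factors, library size alone, voom in limma 3.58.1, no filter or a stricter one, a replicate block, the GC correction, and dropping each library. Named genes are the 9 members, PSME4, the 3 genes of each pathway group with the smallest p, in any case ERBB4, EGF, BTC, NRG1 and ADAM10, and the 3 nearest genes to EGFR and to TGFA, the member with the smallest p. Some genes that this rule or the lists take are not reported here, and counts include them. Members, lists and tests were chosen with earlier results of these data known. In a simulation of this comparison with 13327 genes, edgeR recovered 87 of 89 genes changed by 2 and 75 of 110 changed by 1 on the log2 scale, with 7 false calls. Simulated counts were drawn independently for each gene at its fitted spread and carried no GC trend, unlike these libraries. The simulation therefore does not measure recovery or false calls in the real data.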

Additional observations from a re-analysis of the deposited data

How the results depend on the processing

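TGFA, EREG and AREG remained called as lower under the other scalings, limma voom, both filters, the replicate block and the GC correction; DESeq2 left AREG at −0.74, short of the threshold, and took ADAM17 past it at −0.54. With library size as the only scaling 1 of the 9 genes was called as higher, ERBB3 at 0.64. The pathway genes called as higher were 6 with library size alone, and 5 each with at least 50 counts in 2 libraries and with the replicate block together with the GC correction, against 3 by the fit reported. The stricter filter tested 11100 genes, and the other settings of that sentence tested 13497. The cause of these differences was not tested. EGF changed sign under limma voom (−0.0011) and ADAM10 after the GC correction (0.18, and 0.20 with the replicate block as well). TIMP3, HBEGF, EGF and NRG4 were removed by the stricter filter, and DESeq2 gave them no adjusted p.

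Leaving out 1 library, which leaves a group with a lone sample assumed to vary like the others, gave 43 to 281 called genes over the table, 15 to 192 higher and 26 to 89 lower, against 1426, 616 and 810. Of the 9 genes 0 to 1 was called, all as lower, and of the pathway genes 0 to 2, with 0 to 1 in each direction. Log2 fold changes ranged from −1.41 to −1.27 for TGFA, −1.24 to −0.87 for EREG, −1.16 to −0.40 for AREG, −0.23 to 0.52 for ERRFI1, −0.34 to 0.38 for EGF and −0.44 to 0.33 for ADAM10. These fits have fewer samples.

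With the replicate number as a block 1554 genes were called, 700 higher and 854 lower, and 1399 of them were calls of the fit without it. The numbers are not said to pair libraries, and same-numbered libraries did not deviate together (correlation across genes −0.018). HBEGF, with 23 to 43 counts per library, is limited by depth.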
